A study of Penicillium oxalicum with 12 samples.

Results

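Transcript levels in a histone H2B point mutant of the filamentous fungus Penicillium oxalicum, H2BK123A, were compared with those in a strain lacking laeA, DlaeA. The 2 strains had 3 libraries each, 6 of the 12 libraries of the study. Per the labels, DlaeA is a laeA deletion strain and H2BK123A carries alanine in place of lysine 123 of H2B. The other 6 libraries are 3 of the wild type 114-2 (WT) and 3 of a strain with alanine in place of lysine 131 of H2B (H2BK131A), and they entered the fit for its estimate of the spread. All 4 strains were grown alike: a pre-culture of conidia ran 22 h at 30 °C on 2% glucose, and the washed mycelia were harvested 24 h after transfer to Mandel's medium with 2% glucose. The labels give neither the number of clones per mutant nor the cultures behind the libraries, so every p-value here reflects library-to-library spread, possibly technical. Genes with an FPKM (fragments per kilobase of gene model, relative to all mapped fragments of a library) of at least 1 in at least 3 of the 12 libraries were compared. These were 9431 of the 9931 genes in the table.

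LaeA is a putative methyltransferase of filamentous fungi, known as a nuclear regulator of secondary metabolite gene clusters and of asexual and sexual development. Histone H2B is 1 of the core histones around which DNA is wrapped. In budding yeast, lysine 123 of H2B is the residue to which ubiquitin is attached by the enzyme pair Rad6 and Bre1, a mark needed there for methylation of histone H3 at other lysines. Whether lysine 123 of the P. oxalicum protein corresponds to the yeast residue was not tested. A comparison of the mutants with each other, rather than with the wild type, asks which genes are at different levels when 1 or the other regulator is altered.

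The locus PDE_00584, recalled as laeA and named by no description in the table, was at FPKM 33.8, 33.4 and 35.5 in H2BK123A 1 to 3 and at 0.11, 0.05 and 0 in DlaeA 1 to 3. No H2BK123A library overlapped with DlaeA, and the log2 difference, H2BK123A minus DlaeA of the mean log2(FPKM + 1) ± SE, was 5.07 ± 0.098 (limma, Benjamini-Hochberg adjusted p = 4.71e-12). The only gene described as H2B, PDE_01489, was at 991, 890.0 and 977 in H2BK123A and 691, 793 and 724 in DlaeA, and a transcript level cannot show the amino acid change. FPKM sums were between 720306.0 and 739528.0 in the 6 libraries, 202 to 233 genes were at 0 and 8939 to 9065 genes were at 1 or more. The median SD of a gene over the 3 libraries was 0.111 in H2BK123A and 0.124 in DlaeA on the log2 scale. It was 0.223 in WT and 0.124 in H2BK131A. Each SE and p-value here rests on the spread of all 4 strains, so it is not the spread of H2BK123A and DlaeA alone. DlaeA 1 stood apart within its strain: the SD of the log2 differences over 7407 genes was 0.138 between DlaeA 2 and DlaeA 3, but 0.310 and 0.313 between DlaeA 1 and each of these. Between the libraries of H2BK123A this SD was 0.222 to 0.262. DlaeA 2 and DlaeA 3 were thus closer to each other than any H2BK123A pair, and the pairs with DlaeA 1 were wider. Whether DlaeA 2 and DlaeA 3 come from separate cultures is not stated. Values without DlaeA 1 are given where they differ by a factor over 1.5 or end a call.

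The strains differed at most of the genes measured. At an adjusted p under 0.05, 5768 of 9431 genes were called (61.2%), of which 2646 were higher in H2BK123A (28.1%) and 3122 were lower (33.1%). A difference of at least 2-fold was found for 1298 higher genes (13.8%) and 1101 lower genes (11.7%), and of at least 4-fold for 906 genes (9.61%), 524 higher (5.56%) and 382 lower (4.05%). At 6982 genes (74.0%), the 3 libraries of 1 strain all lay above the 3 of the other. The median log2 difference of all genes was -0.07. For 2034 genes (21.6%), the 95% interval of the log2 difference lay within 0.5 on either side of 0, and for 5510 genes (58.4%) it lay within 1. Without DlaeA 1, 5248 genes were called, and with DlaeA 2 and DlaeA 3 averaged into 1 library, 5275.

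**Figure D1:**
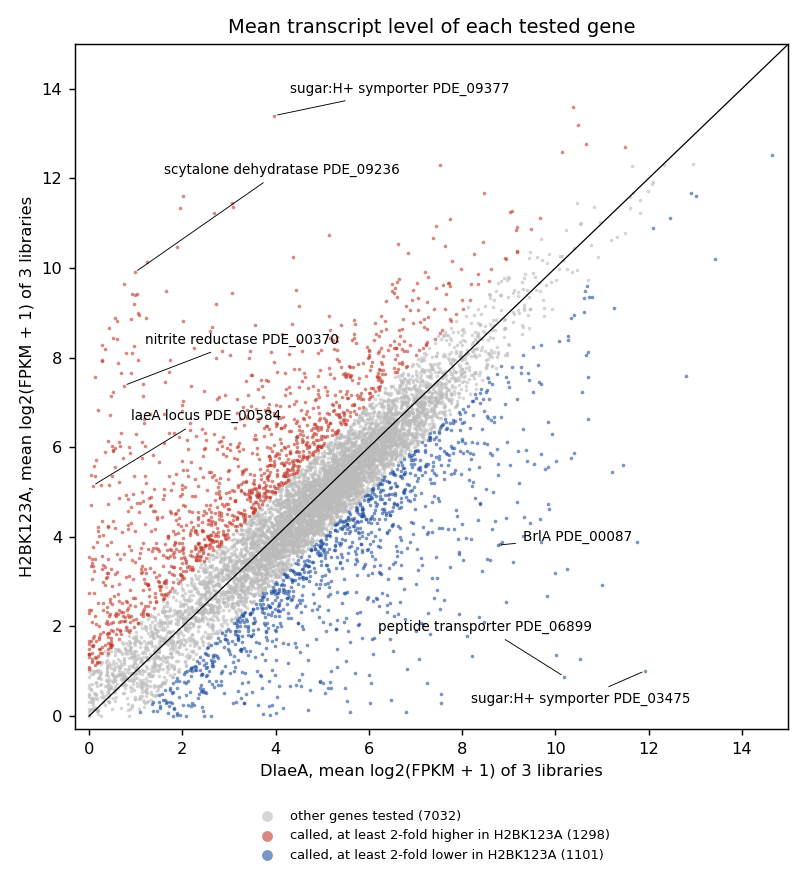
Mean log2(FPKM + 1) of 3 libraries of each tested gene, DlaeA on the horizontal and H2BK123A on the vertical axis, with the line of equal level. Of the 9431 genes, 1298 called genes lie at least 2-fold above the line (red) and 1101 at least 2-fold below it (blue), and single genes sit near 0 in 1 strain and above 10 on the log2 scale in the other.

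Nitrogen assimilation genes were among those that differed most. Fungi take up nitrate by a transporter and reduce it by nitrate reductase and nitrite reductase to ammonium, which glutamate dehydrogenase and glutamine synthetase fix into amino acids. Of 14 genes of nitrate and ammonium assimilation, 9 were higher in H2BK123A and 3 were lower, with a median log2 difference of 1.72, beside 28.1% and 33.1% and -0.07 over all genes. PDE_00369, described as nitrate reductase, was at FPKM 117, 60.9 and 46.8 in H2BK123A 1 to 3 and at 0.35, 0.34 and 0.3 in DlaeA 1 to 3. Every H2BK123A library was above every DlaeA library, H2BK123A 1 was the highest, and the log2 difference was 5.72 ± 0.27 (limma, adjusted p = 6.64e-09). Its neighbour in locus order PDE_00370, described as nitrite reductase, was at 279, 139.8 and 115 against 0.62, 0.76 and 0.63, a log2 difference of 6.63 ± 0.36 (adjusted p = 2.3e-08). The next locus, PDE_00371, described as a nitrate and nitrite transporter, averaged FPKM 32.7 ± 11.5 in H2BK123A and 5.92 ± 0.309 in DlaeA (SD, n = 3), with non-overlapping libraries and a log2 difference of 2.23 ± 0.19.

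For these 3 neighbouring loci, WT was closer to DlaeA than to H2BK123A, and H2BK131A was above every other strain. PDE_00369 was at 0.69, 1.46 and 0.61 in WT and 897, 905 and 1036 in H2BK131A, and PDE_00370 was at 2.94, 9.18 and 3.08 and 1877, 2049 and 2313. A further gene described as nitrate reductase, PDE_02461, had another pattern. It was at 12.3, 12.2 and 11.9 in H2BK123A and at 1.11, 0.76 and 0.72 in DlaeA, a log2 difference of 2.82 ± 0.18 (limma, adjusted p = 9.23e-08), and it averaged 0.923 in WT and 0.7 in H2BK131A. Only H2BK123A was above an FPKM of 10 for this gene. Another gene described as nitrite reductase, PDE_05880, was higher by 1.92 ± 0.20 on the log2 scale.

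Genes described as glutamate dehydrogenase, glutamine synthetase or ammonium transporter differed in both directions. PDE_06171, described as glutamate dehydrogenase, was at 684, 418 and 595 in H2BK123A and at 2079, 2643 and 2706 in DlaeA, with non-overlapping libraries and a log2 difference of -2.15 ± 0.21 (limma, adjusted p = 3.44e-06). That name alone does not say whether the enzyme fixes or releases ammonium. The gene described as the NADP+-dependent glutamate dehydrogenase, PDE_06117, averaged 43.5 ± 19.2 against 5.5 ± 1.08 (SD, n = 3), a difference of 2.70 ± 0.58. Of 2 genes described as glutamine synthetase, PDE_04219 was lower in H2BK123A (-1.07 ± 0.12). PDE_08346 averaged 347 ± 45.7 and 415 ± 101 and was not called (adjusted p = 0.324, 95% interval -0.67 to 0.20). Of the 4 ammonium transporters of the Amt family, PDE_00679 (2.31) and PDE_03587 (1.52) were higher in H2BK123A, PDE_07123 (-1.25) was lower, and PDE_07942 (-0.095, adjusted p = 0.426) was not called.

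**Figure D2:**
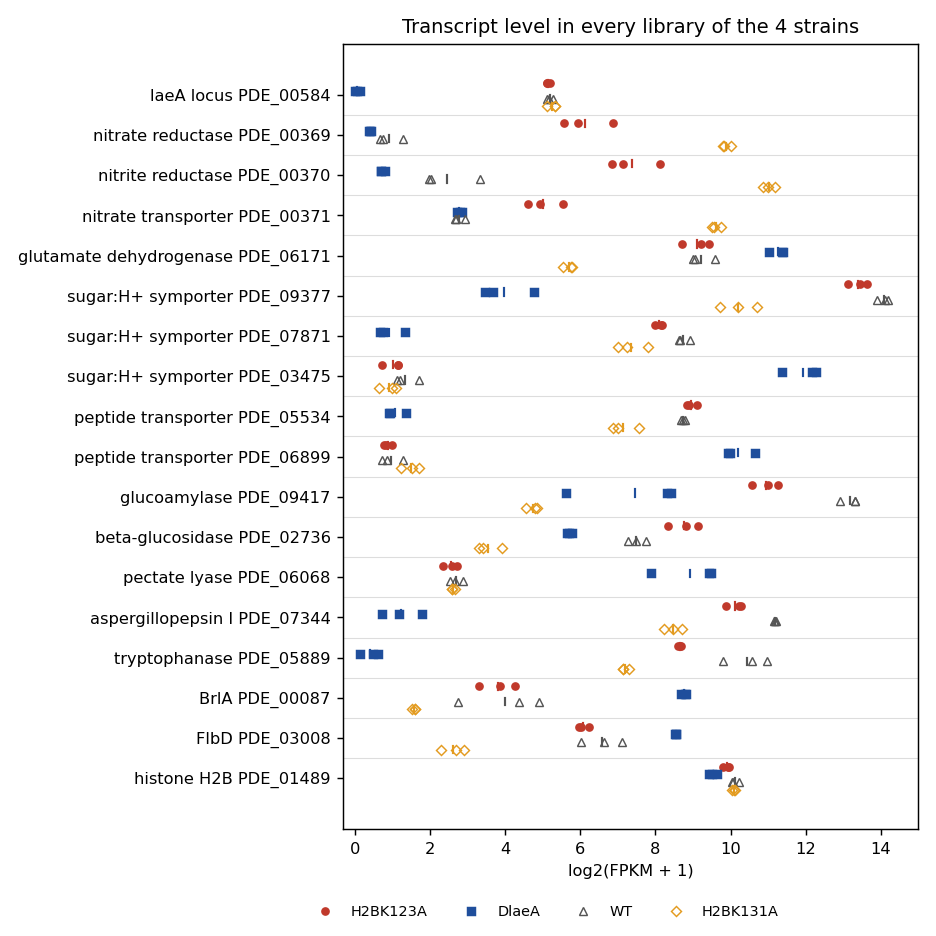
log2(FPKM + 1) of 18 genes in every library, with filled circles for H2BK123A, filled squares for DlaeA, open triangles for WT, open diamonds for H2BK131A and short vertical bars for the mean of each strain. In all 18 rows the 3 H2BK123A libraries and the 3 DlaeA libraries are separate, from the sugar:H+ symporter PDE_09377 (higher in H2BK123A) to PDE_03475 (lower in H2BK123A).

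Uptake genes included some of the largest differences in both directions, and members of 1 family went opposite ways. Sugar:H+ symporters are membrane proteins of the major facilitator superfamily that carry sugars into the cell together with protons. Of 41 tested sugar transporter genes, 20 were higher in H2BK123A (48.8%) and 14 were lower (34.1%), beside 28.1% and 33.1% over all genes, with a median log2 difference of 0.42. The share of lower genes was near that of all genes. PDE_09377, a sugar:H+ symporter, was at FPKM 8979, 12714 and 11058 in H2BK123A 1 to 3 and at 11.8, 26.2 and 10 in DlaeA 1 to 3. The log2 difference was 9.43 ± 0.33 (limma, adjusted p = 6.11e-10), and every H2BK123A library was above every DlaeA library. PDE_03475 showed the reverse, with 0.66, 1.23 and 1.22 in H2BK123A against 2635, 4934 and 4577 in DlaeA and a log2 difference of -10.92 ± 0.24 (adjusted p = 1.25e-11). DlaeA 1 was the lowest of its strain, yet far above every H2BK123A library. WT was at 1.3, 1.2 and 2.25 and H2BK131A at 0.58, 1.14 and 1 for PDE_03475, so DlaeA alone was above an FPKM of 10. Another symporter, PDE_07871, was at 252, 289.7 and 281 against 0.59, 1.53 and 0.69, a log2 difference of 7.18 ± 0.21.

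Of 26 tested genes of amino acid and peptide uptake, 10 were higher in H2BK123A (38.5%) and 8 were lower (30.8%), beside 28.1% and 33.1% over all genes, and the median log2 difference was 0.05. Of the 3 oligopeptide transporters of the proton-dependent POT family, PDE_05534 was at FPKM 459.6, 549 and 471 in H2BK123A and 0.91, 1.57 and 0.89 in DlaeA. That is a log2 difference of 7.87 ± 0.17 (limma, adjusted p = 1.17e-11). PDE_06899 of the same family was at 0.73, 1.01 and 0.79 against 1619, 1007 and 982, a difference of -9.31 ± 0.21 (adjusted p = 1.4e-11). For either gene the strains' libraries were apart, and WT and H2BK131A were on the side of H2BK123A for both. Among amino acid permeases, PDE_00830 was higher in H2BK123A by 4.88 ± 0.33 and PDE_00845 was lower (-5.83 ± 0.18 on the log2 scale), where DlaeA averaged 2791 ± 251 and H2BK123A 48.1 ± 4.98 (SD, n = 3).

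Of the other transporter genes among the largest differences or near 0 in 1 strain, 4 are given here, chosen after their values were seen. PDE_03497, described as a sodium-exporting ATPase, was at 1.27, 1.47 and 1.54 in H2BK123A and at 2049, 1233 and 1300.3 in DlaeA, a log2 difference of -9.26 ± 0.23 (limma, adjusted p = 3.79e-11). PDE_05379, described as a cation-transporting ATPase, was at 342, 409 and 286 against 0.41, 0.66 and 0.47. The inorganic phosphate transporter PDE_02513 was at 156, 147 and 144 against 0.42, 0.48 and 0.41. The lactate transporter PDE_09261 was at 374, 236 and 233 against 0.58, 0.96 and 0.69. All 3 were under 1 in every DlaeA library and over 100 in every H2BK123A library. They were higher by 7.83 ± 0.18, 6.71 ± 0.19 and 7.31 ± 0.20 on the log2 scale.

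Genes of plant polysaccharide breakdown differed in both directions, on a medium whose carbon source was glucose. Amylases cut starch, cellulases cut cellulose to cellobiose and glucose, and hemicellulases and pectinases cut the other wall polymers. Of 11 amylase genes, 4 were higher in H2BK123A (36.4%) and 1 was lower (9.09%), beside 28.1% and 33.1% over all genes, and without DlaeA 1 the lower genes numbered 2. The glucoamylase PDE_09417, which releases glucose from starch ends, was at FPKM 1523, 2476 and 2040.2 in H2BK123A and at 48, 341 and 315 in DlaeA. DlaeA 1 was well below the other DlaeA libraries, and all 3 were below every H2BK123A library. The log2 difference was 3.50 ± 0.57 (limma, adjusted p = 0.000226), and without DlaeA 1 it was 2.59 (adjusted p = 3.01e-06). WT was above both strains, at 7746, 10192 and 10117, and H2BK131A was below both, at 26.8, 22.6 and 27.8. The alpha-glucosidase PDE_03966 was likewise higher by 2.84 ± 0.51, with DlaeA at 19.5, 82.2 and 77.9, and by 2.18 without DlaeA 1. For the amylase PDE_01201 the 2 strains overlapped, at 66.7, 246 and 153 and 66.2, 197 and 202 (log2 difference -0.023 ± 0.46, adjusted p = 0.971), a value whose sign depended on the libraries used. The 95% interval was -1.02 to 0.97 on the log2 scale.

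Of 24 cellulase genes, 7 were higher in H2BK123A (29.2%) and 10 were lower (41.7%), beside 28.1% and 33.1% over all genes, with a median log2 difference of -0.16. The beta-glucosidase PDE_02736, which splits cellobiose, was at 322, 557 and 449 in H2BK123A against 49.4, 51.2 and 53.9 in DlaeA, a log2 difference of 3.04 ± 0.20 (limma, adjusted p = 1.42e-07). The cellobiohydrolase PDE_07945, which releases cellobiose from cellulose chain ends, was lower in H2BK123A, at 3.34, 6.08 and 2.99 against 22.7, 21.4 and 22.8 (-2.23 ± 0.27, adjusted p = 2.17e-05). The endoglucanase PDE_07929 averaged 5 ± 1.11 against 10.1 ± 2.25 (SD, n = 3) and was lower, with a log2 difference of -0.89 ± 0.23 (adjusted p = 0.00556). Another endoglucanase, PDE_05193, was at 0.28, 0.23 and 0.14 against 9.98, 8.18 and 8.75 (-3.03 ± 0.14), and it was near 0 in every H2BK123A library. Among the regulators, PDE_05999, described as the cellulolytic transcriptional activator ClrB, averaged 70.8 ± 3.34 in H2BK123A and 29 ± 1.29 in DlaeA and was higher by 1.26 ± 0.1 (adjusted p = 6.02e-07). The gene PDE_07674, described as the xylanolytic and cellulolytic activator XlnR, was not called (-0.16 ± 0.13, adjusted p = 0.307, 95% interval -0.45 to 0.13). The gene PDE_03168, described as the carbon catabolite repressor CreA, was not called either (0.22 ± 0.18, adjusted p = 0.317, 95% interval -0.18 to 0.61).

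Of 78 hemicellulase and pectinase genes tested, 38 were higher in H2BK123A and 24 were lower (79.5% called, beside 61.2% over all genes), and their median log2 difference was 0.35. The pectate lyase PDE_06068, which cuts pectin by elimination, was at 5.6, 5.03 and 4.07 in H2BK123A and at 237, 682 and 719 in DlaeA. All DlaeA libraries were far above H2BK123A, with DlaeA 1 the lowest of them, and the log2 difference was -6.38 ± 0.33 (limma, adjusted p = 1.48e-08). The beta-mannosidase PDE_08804 was the reverse, at 62, 59.5 and 70.1 against 1.05, 1.27 and 1.58, a difference of 4.82 ± 0.22. Of 10 xylanase genes, 4 were at least 4-fold higher in H2BK123A and 2 at least 4-fold lower, beside 5.56% and 4.05% over all genes. PDE_00752 (3.64) and PDE_06633 (-3.66) were the most extreme on the log2 scale.

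Single genes of peptidases and amino acid breakdown enzymes held some of the widest gaps. Of 86 tested peptidase genes, 26 were higher in H2BK123A (30.2%) and 29 were lower (33.7%), beside 28.1% and 33.1% over all genes, with a median log2 difference of -0.02, so that the list as a whole sat close to all genes. Single members did not. Aspergillopepsin I, an acid protease that fungi secrete, is the description of PDE_07344, which was at FPKM 1187.6, 1233.7 and 944 in H2BK123A and at 1.27, 2.46 and 0.67 in DlaeA (log2 difference 8.89 ± 0.22, limma, adjusted p = 3.72e-11). The carboxypeptidase D gene PDE_05305 was higher by 5.96 ± 0.23, and the Xaa-Pro dipeptidase gene PDE_04034 was lower (-4.38 ± 0.13), with H2BK123A at 2.01, 2.51 and 2.56 and DlaeA at 68.8, 66.3 and 70.8.

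Some genes described as tryptophan-degrading enzymes were near 0 in DlaeA, and others of the same list were higher there than in H2BK123A. Of 27 genes, 11 were higher in H2BK123A (40.7%) and 7 were lower (25.9%), beside 28.1% and 33.1% over all genes. Tryptophanase splits tryptophan to indole, pyruvate and ammonia, and indoleamine 2,3-dioxygenase opens its ring on the way to kynurenine. PDE_05889, described as tryptophanase, was at 406, 410.4 and 387 in H2BK123A and at 0.4, 0.55 and 0.1 in DlaeA, a log2 difference of 8.23 ± 0.23 (limma, adjusted p = 1.05e-10). Among 4 genes described as indoleamine 2,3-dioxygenase, PDE_05885 was at 242, 257 and 225 against 0.2, 0.39 and 0.05 (7.65 ± 0.25). PDE_05907 was at 55.5, 37 and 72.7 against 1351, 1218 and 1302 (-4.58 ± 0.43), so the same description covered genes that differed in opposite directions. Of the remaining 2, PDE_02454 was higher in H2BK123A (1.83 ± 0.41) and PDE_02071 was lower (-1.20 ± 0.17).

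Along the locus numbers, the large differences sometimes stood in unbroken rows. Consecutive numbers were taken as neighbours, since no coordinates are used here. There were 7 stretches of at least 5 consecutive loci, 60 genes in all, in which every gene was called in 1 direction and differed by at least 4-fold; 3 were higher in H2BK123A and 4 were lower. Many fungal secondary metabolite genes are arranged in such clusters, with a backbone enzyme (a polyketide synthase, nonribosomal peptide synthetase or terpene synthase) beside tailoring enzymes.

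The longest stretch, PDE_09227 to PDE_09245, held 19 genes that were higher in H2BK123A, with log2 differences from 2.81 to 8.92 and a median of 7.68. Of the 19 genes, 9 have a description. PDE_09237 is described as monodictyphenone polyketide synthase, PDE_09239 as tetrahydroxynaphthalene reductase and PDE_09236 as scytalone dehydratase, and the latter names belong to enzymes of fungal melanin synthesis. PDE_09236 was at 1031, 964 and 876 in H2BK123A and at 1.45, 1.83 and 0.1 in DlaeA, a difference of 8.92 ± 0.69 (limma, adjusted p = 5.12e-07). PDE_09237 was at 329, 341 and 270.0 against 0.21, 0.46 and 0.02 (8.005 ± 0.62), and PDE_09239 at 745, 659 and 611 against 0.77, 1.6 and 0.68 (8.41 ± 0.59). All 3 were low in H2BK131A as well, where PDE_09236 was at 0.71, 0.71 and 1.39. In WT they varied widely between libraries, with PDE_09236 at 4451, 439.7 and 3834, and WT 2 was the lowest WT library for each of the 3 genes. The locus before the stretch, PDE_09226, was not called (-0.17 ± 0.11, adjusted p = 0.219, 95% interval -0.42 to 0.081). After its end PDE_09246 to PDE_09251 were also higher, by 1.06 to 5.02 on the log2 scale.

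A second scytalone dehydratase gene, PDE_04496, went the other way. It was at 7.99, 11.9 and 10.1 in H2BK123A and at 666, 512 and 479 in DlaeA, a log2 difference of -5.65 ± 0.37 (limma, adjusted p = 1.21e-07). The polyketide synthase PDE_09491, described as naphtho-gamma-pyrone synthase, was at 1.79, 2.69 and 2.61 against 47.5, 59.3 and 63.7 (-4.10 ± 0.31, adjusted p = 4.14e-07). Of 7 pigment enzyme genes, 2 were higher in H2BK123A (28.6%) and 4 were lower (57.1%), beside 28.1% and 33.1% over all genes.

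**Figure D3:**
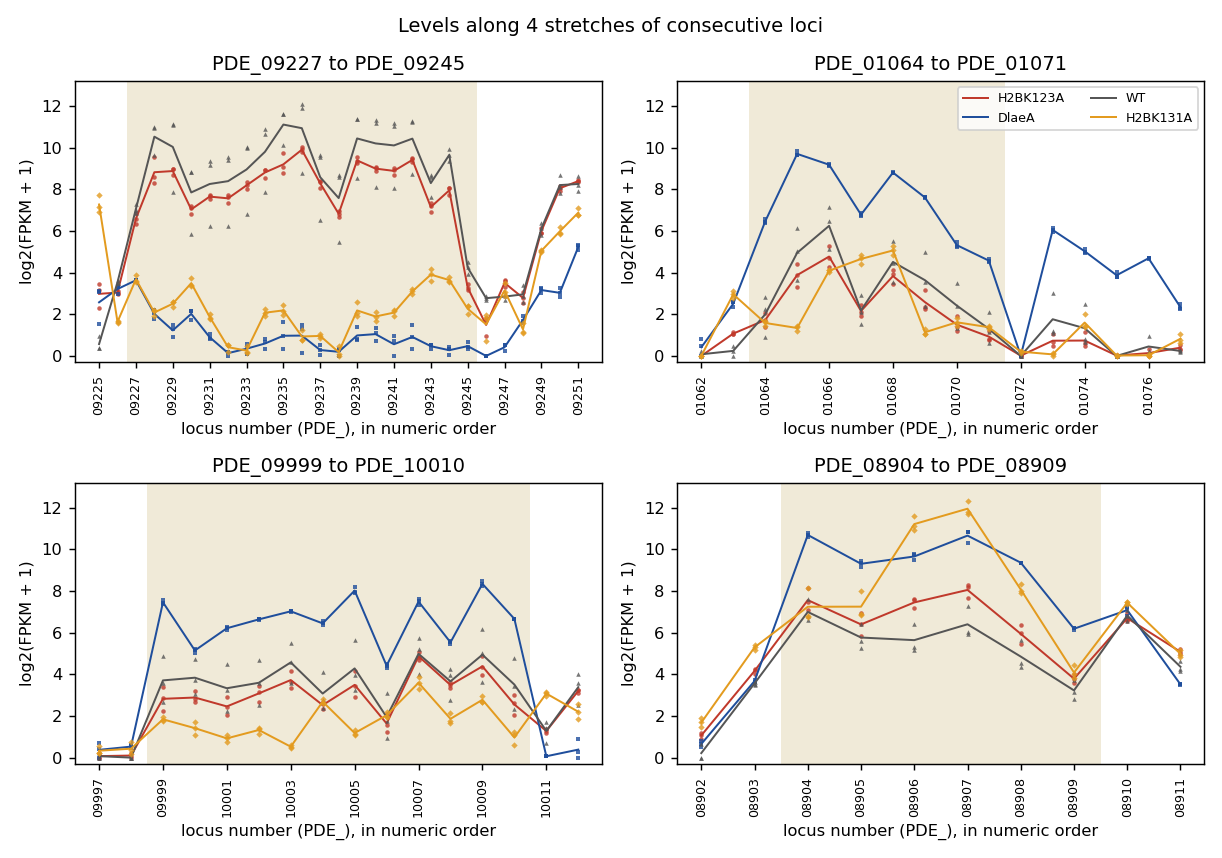
log2(FPKM + 1) along 4 of the stretches in numeric order of locus, with a point for each library, lines through the strain means and the stretch itself shaded. In PDE_09227 to PDE_09245 DlaeA and H2BK131A lie near the bottom and H2BK123A and WT above, whereas in PDE_01064 to PDE_01071 and PDE_09999 to PDE_10010 the DlaeA line is the highest.

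Of the 4 stretches that were lower in H2BK123A, 3 carry descriptions of secondary metabolite enzymes. PDE_01064 to PDE_01071 (8 genes, median log2 difference -4.68) includes a gene described as brevianamide F synthase, PDE_01071, a nonribosomal peptide synthetase by that name, and a prenyltransferase, PDE_01066. PDE_01066 was at 18.6, 38.5 and 25.4 in H2BK123A and at 603, 577 and 560.1 in DlaeA, a difference of -4.41 ± 0.40 (limma, adjusted p = 1.94e-06). Past PDE_01072, which did not pass the filter on low values, PDE_01073 to PDE_01077 were also lower, with log2 differences from -5.32 to -1.94, and PDE_01077 is again described as brevianamide F synthase. PDE_01429 to PDE_01433 (5 genes, median -4.41) holds a gene described as trichodiene synthase, a terpene cyclase, PDE_01430. It was at 0.18, 1.13 and 0.43 against 36.4, 35.9 and 34.3 (-4.58 ± 0.45). PDE_09999 to PDE_10010 (12 genes, median -3.65) is described in part as indole diterpene enzymes, with paspaline synthase (PDE_10000) and geranylgeranyl diphosphate synthase (PDE_10001). PDE_10001 was at 3.08, 6.43 and 4.48 against 73.5, 76.6 and 69.5 (-3.75 ± 0.43, adjusted p = 1.35e-05). For PDE_01066, PDE_01430 and PDE_10001, every WT library was also below every DlaeA library, and WT 3 was the highest WT library.

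The stretch PDE_08904 to PDE_08909 (6 genes, median log2 difference -2.76) is of another kind. Its described members are enzymes of tyrosine breakdown through homogentisate: PDE_08904, 4-hydroxyphenylpyruvate dioxygenase, PDE_08906, homogentisate 1,2-dioxygenase, PDE_08908, maleylacetoacetate isomerase, and PDE_08907, fumarylacetoacetase. The gene for fumarylacetoacetase was at 288, 205 and 312 in H2BK123A and 1273, 1803 and 1847 in DlaeA (-2.61 ± 0.33, limma, adjusted p = 3.21e-05). H2BK131A was above both, at 5198, 3359 and 3565. PDE_08904 differed by -3.13 ± 0.39, and there H2BK131A was at 285, 112 and 107, with H2BK131A 1 above H2BK123A 3.

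Of the remaining stretches that were higher in H2BK123A, PDE_01191 to PDE_01195 (5 genes, median log2 difference 5.18) holds PDE_01194, described as a glutathione S-transferase, an enzyme that couples glutathione to reactive compounds. It was at 2361, 3865 and 1896 in H2BK123A and at 1.94, 5.59 and 1.98 in DlaeA, a log2 difference of 9.39 ± 0.37 (limma, adjusted p = 1.56e-09). WT was between the strains, at 294, 178 and 188, and H2BK131A was at 3169, 5876 and 5667. PDE_06562 to PDE_06566 (5 genes, median 2.72) includes 1 described gene, the chitinase PDE_06566, and was not a stretch without DlaeA 1, under quantile scaling or with a pseudocount of 5.

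Among 13 genes described as secondary metabolite backbone enzymes, 5 were higher in H2BK123A and 7 were lower (92.3% called, beside 61.2% over all genes). All 7 lower genes differed by at least 2-fold (7 of 13, beside 11.7% over all genes), and so did 2 of the 5 higher genes (2 of 13, beside 13.8%). These 2 were PDE_09237 of the long stretch and PDE_03926 (1.09 ± 0.35, limma, adjusted p = 0.0181). The call of PDE_03926 was lost with a pseudocount of 5 (0.43, adjusted p = 0.0804), under quantile scaling (0.85, adjusted p = 0.0529) and without H2BK123A 2 (0.92, adjusted p = 0.0699). The other higher genes, PDE_01235, PDE_04017 and PDE_04252, differed by 0.46 to 0.68 on the log2 scale. The number of higher genes was 2 without H2BK123A 2 and 3 without DlaeA 2. Of 9 tested cytochrome P450 genes, 2 were higher (22.2%) and 4 were lower (44.4%), beside 28.1% and 33.1% over all genes, with PDE_01418 at 62.3, 76.6 and 65.9 in H2BK123A and 527, 486 and 484 in DlaeA (-2.86 ± 0.22).

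The described regulators of asexual development were lower in H2BK123A than in DlaeA. BrlA is the zinc finger factor that starts conidiophore formation in related moulds, and FlbD is a Myb-type regulator upstream of it. PDE_00087, described as BrlA, was at FPKM 8.95, 18.2 and 13.6 in H2BK123A and at 412, 449 and 444 in DlaeA, a log2 difference of -4.95 ± 0.42 (limma, adjusted p = 1.18e-06). PDE_03008, described as FlbD, was at 61.5, 74.3 and 64.5 against 376, 365 and 372 (-2.46 ± 0.23, adjusted p = 2.76e-06). Both genes had non-overlapping libraries, and WT was near H2BK123A for both, at 5.67, 19.7 and 28.9 for PDE_00087. PDE_00079, also described as BrlA, was low in both, at 0.74, 0.59 and 1.2 against 1.51, 1.64 and 3.26; its call (-0.74 ± 0.23, adjusted p = 0.0151) was lost without DlaeA 3, without H2BK123A 2 and with a pseudocount of 0.1. PDE_01188, described as the spore wall maturation protein DIT1, was higher in H2BK123A, at 75.6, 117 and 21.3 against 1.02, 0.91 and 0.61 (4.99 ± 1.21, adjusted p = 0.00376). The summed FPKM of these 4 genes was 101 to 209.7 in H2BK123A and 789.9 to 819 in DlaeA, none of the 4 was at 0 in any library, and it was 124 to 446 in WT and 100.2 to 543 in H2BK131A. The sum pools genes that differed in opposite directions, so it does not place WT or H2BK131A for BrlA. With the DlaeA mean log2(FPKM + 1) set to 0 and the H2BK123A mean to 1, WT was at 0.96 for PDE_00087 and 1.07 for PDE_01188. H2BK131A was at 1.45 for both, beyond H2BK123A: lower for PDE_00087 and higher for PDE_01188. In bulk mycelium, fewer cells of a type and less RNA per cell cannot be told apart. The part of developing structures in the differences of the pigment genes and stretches was not tested. The neighbours of PDE_01188 in locus order, PDE_01187 and PDE_01189, were also called at least 2-fold higher in H2BK123A. The stretch PDE_01191 to PDE_01195, higher as well, lies close by. Whether PDE_01188 follows development or these neighbours was not tested.

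Some genes were near 0 in 1 strain and well above it in the other. With an FPKM under 1 in every DlaeA library and at least 10 in every H2BK123A library there were 59 genes (0.626%), and 29 genes were the reverse (0.307%). Of the 59, 48 were at 10 or more in every WT library and 41 in every H2BK131A library. Of the 29, none was at 10 or more in every WT or every H2BK131A library, and 19 were under 1 in every WT library. The 59 include PDE_00584, the locus recalled as laeA, PDE_06698, an HMG box factor at 67.9, 57.9 and 63.8 against 0.77, 0.9 and 0.8, and PDE_07206, described as averantin hydroxylase, at 245, 246 and 212 against 0.37, 0.91 and 0.4. PDE_06349 has the description of a helicase required for RNAi-mediated heterochromatin assembly and was at 18.6, 12.6 and 24.7 against 0.34, 0.33 and 0.29. WT averaged 2.22 and H2BK131A 5.52 for this gene, both below every H2BK123A library. The 29 include the endo-1,4-beta-xylanase PDE_08094 at 10.1, 15.9 and 15.2 in DlaeA and 0.55, 0.88 and 0.77 in H2BK123A, and PDE_01339, described as a beta-1,3-glucanase, at 27.4, 19.99 and 20.1 against 0.66, 0.63 and 0.47.

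Few genes of the core histones and of the enzymes that act on them were called at 2-fold or more, beside 25.4% over all genes. At that size, 0 of 8 histone genes and 0 of 14 histone acetylation and deacetylation genes were called. Of 16 genes of H2B ubiquitylation and H3 methylation, 1 was higher in H2BK123A and 0 were lower by 2-fold or more. Of 8 histone genes, 4 were higher in H2BK123A and the other 4 were not called, beside 61.2% called over all genes. The H2B gene PDE_01489 averaged 953 ± 55 in H2BK123A and 736 ± 52.2 in DlaeA (SD, n = 3), a log2 difference of 0.37 ± 0.13 (limma, adjusted p = 0.0243). That call was lost without H2BK123A 1, H2BK123A 3, DlaeA 1 or DlaeA 3, with adjusted p between 0.0624 and 0.0788, under quantile scaling (0.26, adjusted p = 0.116) and with the replicate block in the 2 strains alone (adjusted p = 0.0661). Its neighbour PDE_01490, an H2A gene, was higher by 0.62 ± 0.13, the H3 gene PDE_00233 by 0.64 ± 0.16 (adjusted p = 0.0521 under quantile scaling) and the H4 gene PDE_00232 by 0.45 ± 0.14. Another H4 gene, PDE_08392, was not called (-0.041 ± 0.11, 95% interval -0.28 to 0.19).

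Among 16 genes of H2B ubiquitylation and of H3 lysine 4 and lysine 79 methylation, 2 were higher in H2BK123A and 3 were lower (5 called of 16, beside 61.2% over all genes). The E3 ligase gene PDE_03581, described as BRE1, averaged 38.1 ± 2.72 in H2BK123A and 50.1 ± 8.34 in DlaeA (SD, n = 3), a log2 difference of -0.38 ± 0.12 (limma, adjusted p = 0.0174). Without DlaeA 1 it was -0.25 (adjusted p = 0.0696), and the other lower calls of this list were lost with it. The call of PDE_03581 was also lost without H2BK123A 1 (adjusted p = 0.0689) and with the replicate block in the 2 strains alone (adjusted p = 0.0562). PDE_08059, described as ubiquitin-conjugating enzyme E2 A, the class to which Rad6 belongs, was not called (-0.24 ± 0.13, adjusted p = 0.132, 95% interval -0.52 to 0.046). Nor was PDE_07484, described as the H3 lysine 79 methyltransferase (-0.16 ± 0.088, 95% interval -0.36 to 0.031). The exception in size was PDE_09099, described as the COMPASS component SPP1, at 33, 38.4 and 38 against 14.6, 11 and 11.9 (1.48 ± 0.16, adjusted p = 7.67e-06). Of 14 histone acetylation and deacetylation genes, 2 were higher (14.3%) and 6 were lower (42.9%), beside 28.1% and 33.1% over all genes, with differences between -0.98 and 0.64. PDE_05755, described as the deacetylase HOS3, was at 19.8, 19.2 and 18.7 against 38.4, 39.1 and 38.7 (-0.98 ± 0.11).

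Most ribosome biogenesis genes were lower in H2BK123A. Ribosome biogenesis factors process and assemble ribosomal RNA in the nucleolus. Of 74 such genes, 51 were lower (68.9%, beside 33.1% over all genes) and 3 were higher, with a median log2 difference of -0.48. The nucleolar protein gene PDE_00589 was at 8.6, 9.31 and 10.4 in H2BK123A and at 93.1, 65.6 and 67.4 in DlaeA (-2.86 ± 0.14, limma, adjusted p = 1.04e-08). PDE_05818, described as a U3 small nucleolar RNA-associated protein, was among the 3 higher genes, at 178, 214 and 203 against 36.1, 33.9 and 34.8. Of 86 cytosolic ribosomal protein genes, 30 were lower (34.9%, near the 33.1% over all genes) and 2 were higher (2.33%, beside 28.1%), and the median difference was -0.53. The lower count was unstable: it was 9 without H2BK123A 2, 12 without DlaeA 2, 16 without H2BK123A 1 and 19 without DlaeA 1 or DlaeA 3, and it was 61 when the WT libraries were left out of the fit. Over all 9431 genes, 2772 were lower without H2BK123A 2 and 3517 with the WT libraries left out. The median difference of the list moved less than the count, from -0.46 (without H2BK123A 2) to -0.59 (without H2BK123A 3) over all settings. PDE_09728, a gene for L30e, averaged 146 ± 16.3 against 287 ± 28.5 (SD, n = 3). Of 50 mitochondrial-type ribosomal protein genes, 8 were higher and 8 were lower (16.0% each, beside 28.1% and 33.1% over all genes), with a median of -0.01, and 5 were higher without DlaeA 1.

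More respiratory genes were higher in H2BK123A than lower. Of 68 genes of the respiratory chain and ATP synthase, 23 were higher in H2BK123A (33.8%, beside 28.1% over all genes) and 4 were lower (5.88%, beside 33.1%), with a median log2 difference of 0.20. Without DlaeA 1 the counts were 16 and 7, and without H2BK123A 1 the higher genes numbered 15. The ATP synthase subunit alpha gene PDE_01144 was at 33.5, 27.9 and 36 against 12.3, 10.6 and 10.1 (1.47 ± 0.16, limma, adjusted p = 9.23e-06). The subunit c gene PDE_07836 was lower, at 546, 459 and 472 against 1111, 1615 and 1369 (-1.46 ± 0.36, adjusted p = 0.0042). Of 16 TCA cycle genes, 5 were higher and 2 were lower (43.8% called, beside 61.2% over all genes), and without DlaeA 1 the count was 3 each way. The citrate synthase genes differed oppositely, PDE_09135 by 1.48 ± 0.17 and PDE_03487 by -0.87 ± 0.24.

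**Figure D4:**
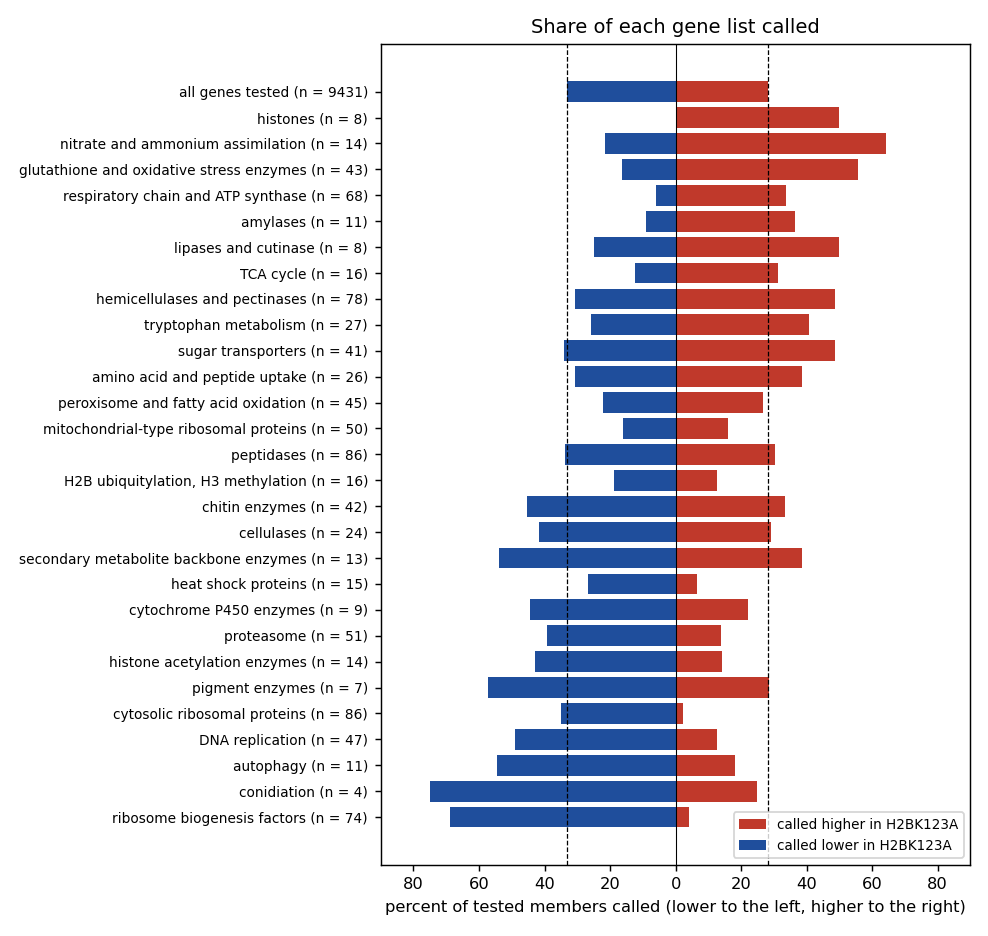
Percent of the tested members of each of 28 gene lists called higher (red, right) or lower (blue, left) in H2BK123A than in DlaeA, with the number tested in brackets and dashed lines at the shares over all 9431 genes, 28.1% and 33.1%. Ribosome biogenesis factors reach 68.9% lower, and nitrate and ammonium assimilation genes 64.3% higher.

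Genes of glutathione and oxidative stress defence were mostly higher in H2BK123A. Of 43 genes, 24 were higher (55.8%, beside 28.1% over all genes) and 7 were lower (16.3%, beside 33.1%), with a median log2 difference of 0.54. The catalase gene PDE_05708 was at 96.9, 94.8 and 129.7 in H2BK123A and 5.29, 4.4 and 4.95 in DlaeA (4.19 ± 0.26, limma, adjusted p = 7.28e-08). A second catalase gene, PDE_01404, was lower (-2.20 ± 0.31), with DlaeA at 33.5, 88.8 and 89.9. Of 15 heat shock genes, 1 was higher and 4 were lower (33.3% called, beside 61.2% over all genes). The higher one, the small heat shock protein gene PDE_00322, was at 484, 359.6 and 434 against 34, 48.9 and 43.1 (3.32 ± 0.18, adjusted p = 2.35e-08).

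Chitin enzymes build and cut the main fibre of the fungal wall. Of 42 genes, 14 were higher in H2BK123A (33.3%) and 19 were lower (45.2%), beside 28.1% and 33.1% over all genes. Among 23 tested chitinase genes, 5 were at least 4-fold higher and 6 at least 4-fold lower, beside 5.56% and 4.05% over all genes. PDE_05082 was at 310.0, 259 and 283 against 10.2, 11 and 8.63 (4.71 ± 0.11, limma, adjusted p = 2.03e-11), and PDE_01779 was at 0.65, 0.82 and 1.49 against 57.5, 45.8 and 50.9 (-4.74 ± 0.21, adjusted p = 4.62e-09). Of 8 tested lipase and cutinase genes, 4 were higher (50.0%) and 2 were lower (25.0%), beside 28.1% and 33.1% over all genes. The cutinase PDE_03294 was higher (2.33 ± 0.23) and the cutinase PDE_07475 was lower (-4.35 ± 0.35), with DlaeA at 505, 367 and 384 for the latter.

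Few proteasome and DNA replication genes were called at 2-fold or more, beside 13.8% higher and 11.7% lower over all genes. At that size, 0 of 51 proteasome genes were higher in H2BK123A and 1 was lower, and 1 of 47 DNA replication genes was higher and 0 were lower. Of 45 peroxisome and fatty acid oxidation genes, 4 were higher and 2 lower by 2-fold or more. Of 11 autophagy genes, 1 was higher and 1 lower. Of 51 proteasome genes, 20 were lower in H2BK123A (39.2%) and 7 were higher (13.7%), beside 33.1% and 28.1% over all genes, with a median log2 difference of -0.21, and the subunit gene PDE_08640 was the only 1 called at 2-fold or more, with -1.70 ± 0.11 (limma, adjusted p = 1.21e-07). Of 47 DNA replication genes, 23 were lower (48.9%) and 6 were higher (12.8%), beside 33.1% and 28.1% over all genes, with a median of -0.26. Of these genes, 13 were lower without DlaeA 1 and 14 without H2BK123A 3. Of 11 autophagy genes, 6 were lower (54.5%) and 2 were higher (18.2%), beside 33.1% and 28.1% over all genes. The ATG4 protease gene PDE_01488 was at 41.9, 43.6 and 42 against 154, 142 and 141. Of 45 peroxisome and fatty acid oxidation genes, 12 were higher and 10 were lower (48.9% called, beside 61.2% over all genes). PDE_06959, a 3-hydroxyacyl-CoA dehydrogenase gene, was at 7.48, 8.09 and 9.15 against 0.61, 0.54 and 0.42 (2.60 ± 0.14).

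The levels of WT and H2BK131A were mostly on the side of H2BK123A. Each of the 2399 genes that differed by at least 2-fold was placed on a scale where 0 is the DlaeA mean and 1 is the H2BK123A mean of log2(FPKM + 1). WT lay nearer to H2BK123A at 1911 genes (79.7%) and nearer to DlaeA at 488, with a median position of 0.945. Among the 1101 genes that were lower in H2BK123A, WT was nearer to H2BK123A at 996 (90.5%), and among the 1298 higher genes at 915 (70.5%). H2BK131A lay nearer to H2BK123A at 1767 genes (73.7%). Outside the range of the 2 strains lay 1061 genes in WT on the side of H2BK123A and 143 on the side of DlaeA. These counts are a description, since the genes were selected on the same H2BK123A and DlaeA libraries that set the scale.

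Values against WT, from contrasts that share libraries with the comparison above, show both kinds of gene. BrlA (PDE_00087) differed from WT by -0.19 in H2BK123A (limma, adjusted p = 0.739) and by 4.76 in DlaeA (adjusted p = 1.42e-06). The pectate lyase PDE_06068 differed by -0.14 (adjusted p = 0.761) and 6.25 (adjusted p = 1.59e-08). The nitrate reductase PDE_00369 differed by 5.22 in H2BK123A (adjusted p = 4.13e-07) and by -0.50 in DlaeA (adjusted p = 0.113). For the beta-glucosidase PDE_02736 the strains lay on opposite sides of WT, at 1.26 (adjusted p = 0.000526) and -1.78 (adjusted p = 1.19e-05).

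**Figure D5:**
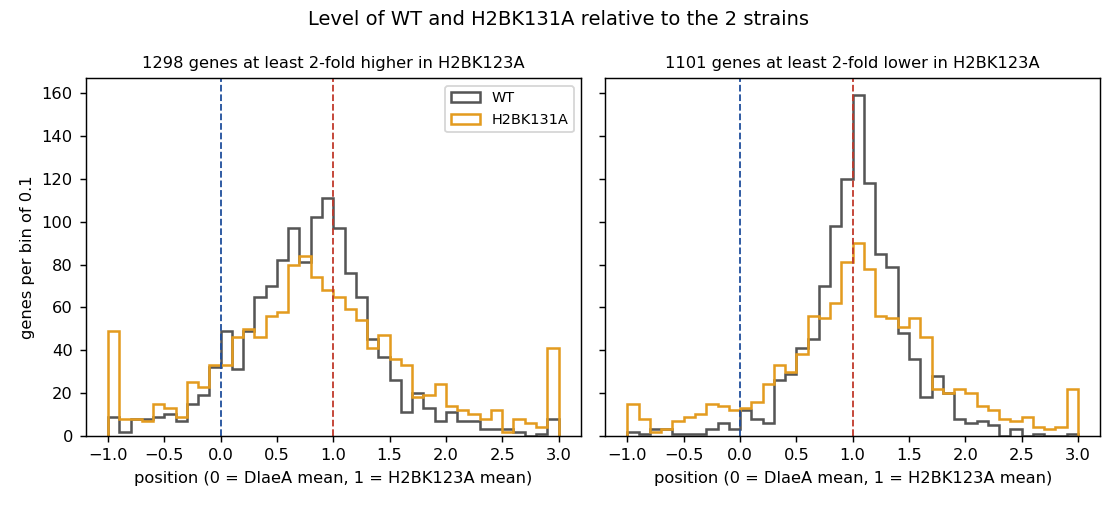
Position of WT (grey) and H2BK131A (orange) between DlaeA (0, dashed blue) and H2BK123A (1, dashed red) on the mean log2(FPKM + 1) scale, as genes per bin of 0.1, for the 1298 higher genes (left) and the 1101 lower genes (right), with positions beyond the axis counted in the end bins. WT peaks near 1 in both panels, with medians of 0.806 (left) and 1.04 (right).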

How the data were processed

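The deposited table gives FPKM per gene and library, per the file headers, with KEGG and Nr descriptions; no source used here names the aligner, genome build or counting. The labels' protocols describe short-tag libraries. Read depth is unknown. With the lowest nonzero values of each low gene taken as 1 step, 60.5% of 1817 low values were within 0.1 step of whole steps. The lowest values lie near 1 step by construction, and the step was not shown to be 1 read. Therefore no reads were recovered and no count test was run. From the deposited FPKM, log2(FPKM + 1) was computed for the 9431 genes at FPKM 1 or more in at least 3 libraries, and limma 3.58.1 (R 4.3.3) was fitted over all 12 libraries with strain as the term, a mean-variance trend and 8 residual degrees of freedom. The contrast was H2BK123A minus DlaeA, two-sided, Benjamini-Hochberg adjusted, called under 0.05. Fold changes on this scale understate those of low genes. Tables and figures used Python 3.11.15, pandas 2.3.3 and matplotlib 3.10.9.

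Gene lists are searches of the descriptions, held by 5118 of 9931 genes. The members and lists were chosen with earlier results of these data known. Named genes were the 12 largest differences each way with non-overlapping libraries and a mean FPKM of at least 10 in the higher strain, up to 2 called members each way of each list, described members of stretches, every member of lists of 6 or fewer, and 13 fixed loci. Other genes, among them those without a list rank, genes on in 1 strain and neighbours of stretches, were chosen after their values were seen. Same-numbered libraries did not deviate together (correlations -0.10, -0.07 and -0.02), so the numbers were not taken as pairs. The fit was run on simulated data (9431 genes, 200 changed), with all other genes at 1 mean in all 12 libraries. It recovered 26.9%, 88.1% and 92.4% of genes changed by 0.5, 1 and 2 on the log2 scale, and 3.5% of 143 calls were false. In the data 61.2% of genes were called, far more than were changed in the simulation. These rates therefore do not carry over to this comparison. Alternatives covered pseudocounts, filters, scalings, the libraries in the fit, a replicate block and leaving out each library.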

Additional observations from a re-analysis of the deposited data

How the results depend on the processing

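Of 66 counts, 50 kept within 1.5 times their value in all 18 settings run, 6 of which leave out 1 library. The number of genes called was 5275 to 6466 in the other 12 settings and 5168 to 5282 without 1 library. The replicate block gave 5623 calls over 12 libraries, and 6018 in the libraries of the 2 strains alone, against 6414 there without it; the numbers do not pair the libraries. Runs of consecutive loci numbered 12 with a pseudocount of 0.1.

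Among lists, cytosolic ribosomal proteins called lower were 60 in the 2 strains alone, 61 with WT left out, 58 with the replicate block in the 2 strains, 14 with DlaeA 2 and DlaeA 3 averaged, and 9 to 26 without 1 library. Mitochondrial-type ribosomal proteins called higher were 13 under median ratio scaling, 5 with DlaeA 2 and DlaeA 3 averaged and 4 to 6 without 1 library, and those called lower 5 to 7 without 1 library. Their share of higher calls was 50.0%, but 65.0% under median ratio and 63.2% under quantile scaling. Secondary metabolite backbone enzymes called higher were 3 with a pseudocount of 5, with a filter of FPKM 5 and under quantile scaling, and 2 to 5 without 1 library, and their share of higher calls moved from 41.7% to 30.0% under quantile scaling. TCA cycle genes called lower were 4 with WT left out, and those called higher 3 to 5 without 1 library. Peroxisome and fatty acid oxidation genes called lower were 18 in the 2 strains alone and 16 there with the replicate block. Histones called higher were 2 under quantile scaling and 2 to 4 without 1 library. H2B ubiquitylation and H3 methylation genes called lower were 5 in the 2 strains alone and 5 with WT left out, and without 1 library 0 to 3 were lower and 1 to 2 higher. Without 1 library, respiratory genes called higher were 15 to 25 and lower 4 to 7, DNA replication genes called lower 13 to 20, amylases called lower 1 to 2, and heat shock genes called lower 2 to 3. The cause was not tested.

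PDE_01201, not called in any setting, changed sign to 0.040 under median ratio scaling, 0.24 with DlaeA 2 and DlaeA 3 averaged, 0.49 without H2BK123A 1, 0.23 without DlaeA 2 and 0.25 without DlaeA 3, within -0.55 to 0.49 over the settings without 1 library. The stretch PDE_09999 to PDE_10010 kept 9 of 12 genes in a row under median ratio scaling and without H2BK123A 1, and 5 with a pseudocount of 5, and PDE_06562 to PDE_06566 was no stretch with a pseudocount of 5, under quantile scaling or without DlaeA 1. With depth unknown, values near 0 cannot be given a counting error.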

Other observations

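Some genes of 1 description went opposite ways between the strains. Among 856 KEGG names carried by at least 2 tested genes, 31 had 1 or more genes at least 4-fold higher in H2BK123A and 1 or more at least 4-fold lower (3.62%), a count made, like the choice of examples, after the values were seen and not tested. Over all genes, 5.56% were called at least 4-fold higher and 4.05% at least 4-fold lower. The 31 names were carried by 2 to 26 tested genes each, and a name with more genes has more room to hold both directions. Lactate transporters of the SHS family were a pair that went opposite ways, with PDE_09261 at 7.31 and PDE_05653 at -3.94 on the log2 scale. The pyruvate decarboxylases, which open the way from pyruvate to ethanol, were another pair (PDE_04873 at 3.08 and PDE_04911 at -2.28). Among 5 genes described as branched-chain amino acid aminotransferase, PDE_04024 differed by 2.61 and PDE_03805 by -4.28. Among 5 described as 4-hydroxyphenylpyruvate dioxygenase, PDE_09761 differed by 6.37 and PDE_08904 of the tyrosine stretch by -3.13. The mannan endo-1,6-alpha-mannosidase PDE_00051 was at -6.31, and PDE_01256 of the same name at 2.59.

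Several of the genes with the largest differences carry no usable description. PDE_00508 and PDE_00509, adjacent in number, were at FPKM 3498, 2850.2 and 3032 and at 5476, 4294 and 4459.7 in H2BK123A, against 2.49, 6.61 and 1.53 and 5.32, 11.4 and 3.75 in DlaeA. PDE_06527 was at 2510.4, 2229 and 2457 against 3.93, 7.83 and 5.14. On the other side, PDE_04665 was at 12.6, 11.4 and 17.8 in H2BK123A and at 3921, 3275 and 3169.8 in DlaeA, and PDE_00558 at 1.77, 1.26 and 1.76 and 1051, 1027 and 1045. WT was on the H2BK123A side for all 5, averaging 2608, 4348, 2944, 15.2 and 1.51 in that order.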
